A study of Drosophila melanogaster with 36 samples.

Results

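A group of 7 genes with general cellular roles, unk, Pp1-87B, TfIIA-L, Adk3, RhoGDI, Wdr33 and Rnf11, were described across wing discs of 12 lines of Drosophila melanogaster selected for wing shape. These 7 genes were read by 9 probe sets, all annotated to a single gene symbol, among 18769 probe sets that are not controls. A probe set is the group of short probes on the array that reads 1 transcript or a few. All 9 were among the 9385 probe sets tested, which read 7222 genes through probe sets of 1 symbol. The genes had been picked because 1 line gave far less signal than nearly all other lines, so every comparison that includes that line is a description here, with no test. That line was the California (CA) low line for unk, Pp1-87B, TfIIA-L and Adk3, the CA high line for RhoGDI and Wdr33, and the Massachusetts (MA) founder H for Rnf11.

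Wing discs, the larval tissue that forms the adult wing and much of the thorax wall, were dissected from larvae of the third instar, a median of 6.2 h before pupariation, and all lines were kept at 20 °C on cornmeal agar. The high line H and the low line L came from a wild MA population by 20 generations of selection in opposite directions and were then made isogenic. High lines A1 to D1 and low lines A2 to D2 were selected for 25 generations from the H by L hybrid populations A to D, after 34 generations of mixing, and were inbred for 10 generations. The CA high and CA low lines were selected from a separate population. Each line is a single selected stock, measured on 3 arrays from tubes of 100 pooled discs, and whether those tubes stood for separate cultures is not stated in the labels. P-values therefore measure the spread between arrays, which may be technical. The values are MAS5 signals, a linear intensity on 1 common scale for all arrays, as deposited by the authors and without detection calls.

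The array medians lay between 243.2 and 433.5 and the 10th percentiles between 22.4 and 54.1. On all 36 arrays the mean correlation with arrays of the same line (0.945 to 0.958) was above that with other lines (0.939 to 0.949). The 9 wing disc markers that could be read had mean signals of 1289 (ptc) to 23544 (nub), with 5 of them, nub, ap, en, vg and tsh, at 11257 or more, and dpp, zfh2, rn and ptc at 4259, 2602, 1667 and 1289, in the range of some of the markers that follow. Markers of hemocytes had mean signals of 265.5 to 948.8, those of fat body 123.3 to 791.0 and those of salivary gland 63.9 to 522.5. Those of muscle precursors had 1759 to 3378, those of neurons 60.3 to 2175 and those of trachea 314.0 to 20765. All these marker means were taken on the log2 scale. Single arrays went far higher for salivary gland and fat body: Sgs7 gave 76.7 to 6674.2, Sgs3 22.1 to 3997.3, Lsp2 365.8 to 4923.5 and Fbp1 30.6 to 2015.7. The part of these tissues and cell types in the results below was not tested.

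The genes belong to different basic processes. Pp1-87B encodes a catalytic subunit of protein phosphatase 1 (PP1), an enzyme that removes phosphate from serine and threonine and finds its substrates through many targeting subunits. TfIIA-L encodes the precursor of the large subunits of the general transcription factor TFIIA, which stabilises TBP on promoters, and Wdr33 is in human cells the subunit of the cleavage and polyadenylation factor that recognises the polyadenylation signal of messenger RNA. The RNA-binding zinc finger protein Unkempt, encoded by unk, acts with Headcase downstream of TOR signalling in flies. Adk3 belongs to the adenosine kinase family, enzymes that turn adenosine into AMP, and Rnf11 encodes a RING finger protein that in human cells works with ubiquitin ligases of the Nedd4 family.

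In the CA low line the leading probe set of unk, the one with the larger drop, gave signals of 9.1, 73.4 and 139.7, against 2167.4 to 5449.2 with a median of 3138.5 on the other 33 arrays. The 3 CA low arrays were thus all below the other 33, at percentiles 0.863 to 33.9 of their arrays, and their mean lay 6.20 below that of the other 11 lines on the log2 scale (SE 0.36), a 73.3-fold lower level. This size rested on single arrays, at -5.04 without CA low replicate 1 and -7.01 without replicate 2 (log2). The next lowest line, A2, was 5.94 higher than CA low (log2). Of the 9385 probe sets, 2.18% had all 3 CA low arrays below all the others, and nothing is read from the presence of unk among them, since this pattern chose it. The second probe set of unk went the other way. It gave 4449.5, 4832.0 and 5222.0 in CA low, against 1190.6 to 2865.3 with a median of 2012.4 on the other 33 arrays, so that every CA low array was above all others, as for 1.88% of probe sets. Its difference was 1.26 (log2, SE 0.16), a 2.40-fold higher level. The leading probe set exceeded the second by 0.33 (L) to 1.18 (C1) on the log2 scale in the other 11 lines, whereas in CA low this difference was -6.73. Over the 12 line means the 2 probe sets had a Pearson r of -0.791, and over the 11 lines without CA low an r of 0.536, both given as descriptions of points that share the same arrays.

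The remaining members low in CA low were read by 1 probe set each. Pp1-87B had signals of 670.4, 714.7 and 804.7 in CA low, against 30299.8 to 44239.0 with a median of 36564.2 on the other 33 arrays. CA low was lower by 5.65 on the log2 scale (SE 0.05), or 50.2-fold. The gene was at percentiles 59.8 to 62.2 of the arrays in CA low, and among the brightest, at percentiles 97.8 to 98.8, in the other lines. TfIIA-L gave 1359.4, 1466.9 and 1496.3 in CA low, against 13175.8 to 16306.1 with a median of 15009.5 elsewhere, a difference of -3.37 (log2, SE 0.05) or 10.3-fold. The other 11 line means of TfIIA-L differed by at most 0.18 (log2), the other lines being nearly level. Adk3 gave 28.7, 54.0 and 84.1 in CA low, against 344.4 to 1570.6 with a median of 990.5 elsewhere, a difference of -4.16 (log2, SE 0.22) or 17.9-fold. Unlike Pp1-87B and TfIIA-L, Adk3 in CA low was at percentiles 9.4 to 24.7 of the arrays, so its fold and that of unk, which also reached the dim end, are not exact.

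RhoGDI and Wdr33 were low in the other CA line. RhoGDI gave 1211.5, 1255.9 and 1925.7 in CA high, against 32620.3 to 50601.4 with a median of 43454.9 on the other 33 arrays, a difference of -4.90 (log2, SE 0.07) or 29.9-fold. Wdr33 gave 638.0, 708.5 and 812.4 in CA high, against 2951.6 to 4826.5 with a median of 3446.2 elsewhere, a difference of -2.32 (log2, SE 0.08) or 4.98-fold. For both genes all 3 CA high arrays were below the other 33, as for 2.08% of all tested probe sets, and both stayed well above the dim end of the array, at percentiles 65.7 to 70.4 for RhoGDI and 59.4 to 62.5 for Wdr33. A lower signal can stem from fewer cells that carry a transcript or from less RNA per cell, and these cannot be told apart in whole discs. A signal also depends on how well a transcript matches the probes. The probe sequences and the lines' own sequences were not used here, so a lower transcript level and a transcript altered under the probes cannot be told apart for a gene read by 1 probe set.

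**Figure D1:**
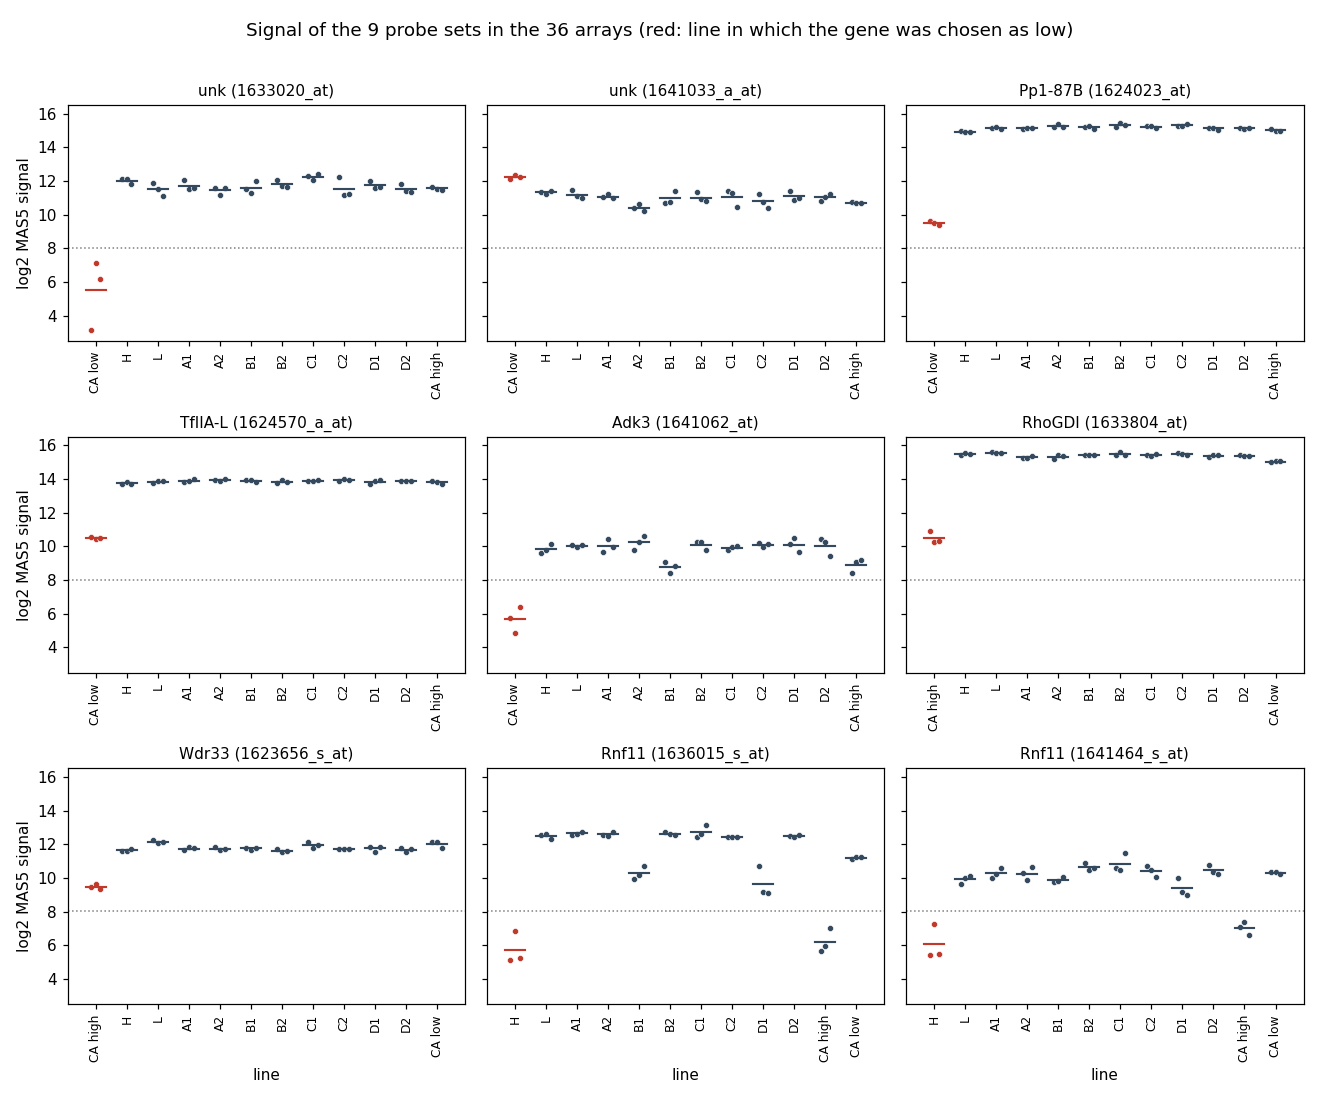
Signal on the log2 scale (vertical axis) of the 9 probe sets in the 12 lines (horizontal axis), with a point per array, a bar at the mean of 3 arrays, the line in which the gene was chosen as low in red at the left, and the filter level of 259.72 as a dotted line. The red line stands alone for unk, Pp1-87B, TfIIA-L, Adk3, RhoGDI and Wdr33, lies above all others in the second probe set of unk, and is joined by CA high in both probe sets of Rnf11.

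Rnf11 was not low in H alone. Its leading probe set gave 35.3, 38.0 and 116.0 in H, and 49.7, 63.1 and 130.8 in CA high, so that these lines overlapped, and 31 of the other 33 arrays were above all H arrays. A further 3 lines stood between these and the rest: D1 with 540.9, 580.9 and 1678.8, B1 with 981.9, 1174.1 and 1642.3, and CA low with 2191.0, 2422.9 and 2439.4. The lines L, A1, A2, B2, C1, C2 and D2 gave 5013.4 to 9007.4. Against the mean of the other 11 lines H was lower by 5.64 (log2, SE 0.26), or 50.0-fold, but it was only 0.47 (log2) below CA high. The H arrays were at percentiles 5.38 to 26.2, so this fold is not exact either, and the difference was -5.03 with a pseudocount of 29.4 and -4.22 against L and the CA lines alone. Of all tested probe sets, 1.49% had all 3 H arrays below the other 33, and Rnf11 was not among them.

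The second probe set of Rnf11 ordered the lines alike at the low end. It gave 43.7, 44.6 and 156.9 in H, 98.5, 134.9 and 164.6 in CA high, 499.6, 575.5 and 1037.5 in D1, and 863.0, 912.2 and 1046.3 in B1. H minus the mean of the other 11 lines was -3.88 (log2, SE 0.25), or 14.7-fold lower, and CA high was 0.95 above H. This difference was -4.49 without H replicate 2 and -3.01 against L and the CA lines alone. The 2 probe sets had a Pearson r of 0.962 over the 12 line means and of 0.944 without H. B1 and CA low overlapped other lines in the second probe set, whereas in the leading one CA low was separate from its neighbours in the order of lines on both sides.

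**Figure D2:**
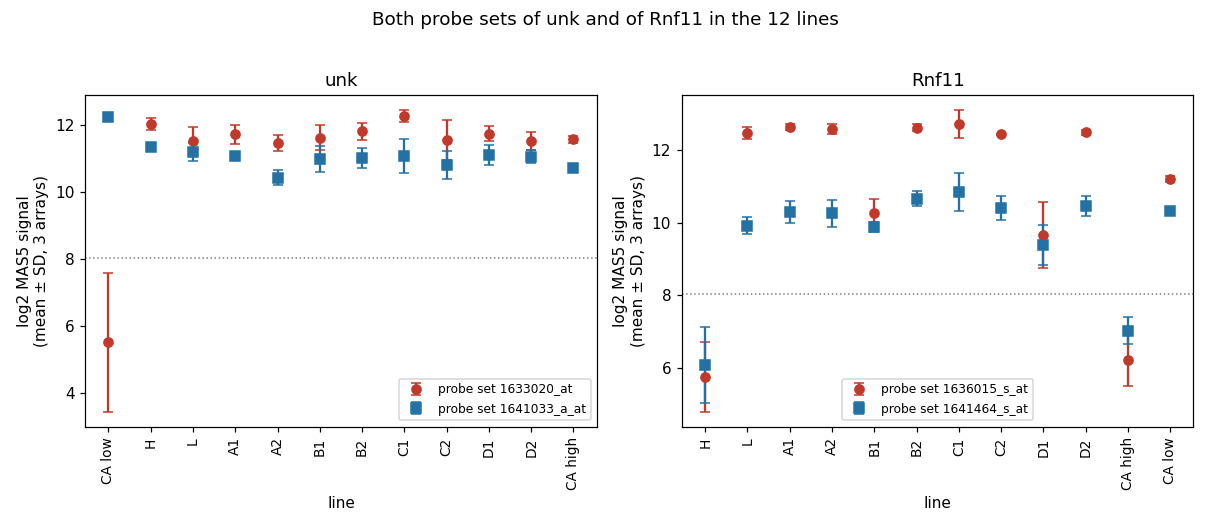
Mean log2 signal with SD over 3 arrays (vertical axis) of both probe sets of unk (left) and Rnf11 (right) in the 12 lines (horizontal axis), with the filter level dotted. In CA low the leading probe set of unk minus the second is -6.73 in log2 signal, while those of Rnf11 are both lowest in H and CA high.

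The levels of most members were close together in all lines but the low one. The gap above the low line, and in part the closeness of the other lines, come from how the genes were picked. Nothing is read from them. When the lines were ordered by mean, 1 of the 11 pairs of neighbours in that order had arrays that did not overlap for the leading probe set of unk, for Pp1-87B, TfIIA-L and Wdr33, namely the low line and the next. There were 2 such gaps for RhoGDI, below and above CA low, and 2 for Adk3, above CA low and between CA high and H. In RhoGDI the 3 CA low arrays (32620.3, 33788.3 and 33795.1) lay below the lowest MA array (37038.7). In Adk3 the B1 arrays (346.9, 449.0 and 542.2) and the CA high arrays (344.4, 536.2 and 589.4) lay below the arrays of all other lines except CA low. All other neighbours in the order overlapped for these 6 probe sets.

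Tests were made where the low line was not part of the comparison, by limma on the log2 signals of all 36 arrays, with p-values adjusted by the method of Benjamini and Hochberg over 9385 probe sets. Of 52 such member differences, 13 passed at an adjusted p below 0.05, which is 25.0%. Within the pairs of high and low lines, 9 of 45 passed. Between H and L, 2 of 7 member probe sets passed, against 22.4% of all tested probe sets. The counts were 1 of 9 between A1 and A2 (15.7% of all), 2 of 9 between B1 and B2 (12.7%), 0 of 9 between C1 and C2 (14.2%) and 2 of 9 between D1 and D2 (10%). Both probe sets tested in the CA pair passed, those of Rnf11, against 17% of all. These small counts do not set the members apart from the other probe sets.

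For the general factors the MA pairs differed little. Pp1-87B gave 30299.8, 30672.1 and 32484.4 in H, and 34798.5, 35914.9 and 37284.4 in L, groups that did not overlap, and was lower in H by limma (-0.21, SE 0.07, adjusted p = 0.0225). In the reselected pairs its differences of -0.14 to -0.01 did not pass. CA high was lower than the mean of the 10 MA lines by limma (-0.16, SE 0.05, adjusted p = 0.0138), in a comparison in which 25.4% of all probe sets and 2 of 5 member probe sets passed. The H against L call was lost with quantile normalization (adjusted p = 0.135) and without any 1 of 3 arrays (adjusted p = 0.0656 without H replicate 2, 0.0802 without H replicate 3 and 0.0984 without L replicate 2). The CA high call was lost with arrays centred on their medians (adjusted p = 0.145), without CA high replicate 2 or 3 (0.117 and 0.0799), and against H and L alone, where the difference was -0.02 (adjusted p = 0.829).

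TfIIA-L passed in none of the 5 MA pairs, where its differences ran from -0.09 to 0.05 and their 95% intervals from -0.22 to 0.18 (log2), nor in CA high against the MA mean (-0.06, limma adjusted p = 0.431). Between H and L it gave 13175.8, 13551.6 and 14700.6 in H, and 14125.1, 14968.1 and 15027.8 in L, groups that overlapped. With each array centred on its median this difference was -0.33 and passed (adjusted p = 0.0421). RhoGDI passed in none of the MA pairs either, with differences of -0.07 to 0.01 and intervals from -0.27 to 0.21. In CA low, the line where RhoGDI was not chosen as low, it was below the MA mean (-0.39, SE 0.07, limma adjusted p = 0.000101), and 24.9% of all probe sets and both member probe sets passed in that comparison.

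The second of these was Wdr33, which was higher in CA low (3565.3, 4474.0 and 4501.1) than the MA mean (0.24, SE 0.08, limma adjusted p = 0.0191). That call was lost with arrays centred on their medians (adjusted p = 0.383), against H and L alone (0.12, adjusted p = 0.382), and without CA low replicate 1 or 2 (adjusted p = 0.182 and 0.171). Between the founders Wdr33 gave 3081.6, 3099.4 and 3401.0 in H, and 4360.9, 4561.6 and 4826.5 in L. The groups did not overlap, and the difference of -0.52 (SE 0.10) had an adjusted p of 0.000377 by limma. The reselected pairs, at 0.01 to 0.22, did not pass.

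Adk3 was lower in B1 than in B2. It gave 346.9, 449.0 and 542.2 in B1, and 891.0, 1202.8 and 1247.0 in B2, a difference of -1.33 (SE 0.30, limma adjusted p = 0.00232) between groups that did not overlap. CA high was below the MA mean by 1.02 in log2 signal (a difference of -1.02, SE 0.23, limma adjusted p = 0.000885). In the other MA pairs the differences of -0.20 to 0.04 did not pass, with intervals of -0.82 to 0.66.

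The leading probe set of unk passed in no MA pair (-0.19 to 0.71, intervals from -1.18 to 1.70), and not in CA high against the MA mean (-0.15, limma adjusted p = 0.81). All arrays share 1 estimate of the spread, and without CA low replicate 1, whose signal was 9.1, the C1 minus C2 difference of 0.71 passed (adjusted p = 0.0498). The second probe set of unk gave 2008.6, 2106.2 and 2366.0 in A1, and 1190.6, 1331.2 and 1611.1 in A2, higher in A1 by 0.66 (SE 0.21, limma adjusted p = 0.0326). Leaving out A1 replicate 1, 2 or 3 or A2 replicate 1 or 3 gave adjusted p-values of 0.0703, 0.121, 0.0521, 0.0838 and 0.14, quantile normalization 0.0617, and no filter on low signal 0.0571. Its value in CA high against the MA mean was -0.29 (adjusted p = 0.185), and -0.55 against H and L alone (adjusted p = 0.0262).

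Rnf11 differed within some of the reselected pairs. In the leading probe set, B1 was lower than B2 (5911.1, 6200.0 and 6781.1) by 2.35 in log2 signal (a difference of -2.35, SE 0.35, limma adjusted p = 8.8e-06). D1 was likewise lower than D2 (5498.4, 5772.1 and 6000.2), with a difference of -2.83 (adjusted p = 3.92e-07). In pairs A (0.05, adjusted p = 0.959) and C (0.29, adjusted p = 0.663) the difference did not pass. The pairs were also compared with each other, by contrasts added after the data had been seen. All 6 contrasts reuse the same 4 pair differences, so they are not separate results. The leading probe set of Rnf11 passed in 4 of the 6 contrasts between pairs, A against B (3.9% of all probe sets), A against D (4.24%), B against C (7.35%) and C against D (3.54%), and not in A against C (7.25%) or B against D (2.78%). CA high was lower than CA low, with differences of -4.98 in the leading and -3.29 in the second probe set (limma adjusted p = 1.51e-12 and 7.22e-09). The second probe set gave -0.78 in pair B (adjusted p = 0.141) and -1.07 in pair D (SE 0.34, adjusted p = 0.0368). The pair D call of the second probe set was lost without D1 replicate 2 or 3 or any 1 of the D2 arrays, where adjusted p-values ran from 0.0563 to 0.179, and with 4 other settings.

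The gene next to Rnf11 on chromosome 4 had the opposite pattern in H. Zip102B, a zinc transporter of the ZIP family, gave 12521.7, 13184.0 and 13304.8 in H, 10251.3, 12484.5 and 13215.4 in CA high, and 11306.5, 12386.0 and 13113.3 in CA low. On the 27 arrays of L and the 8 reselected lines it gave 265.6 to 994.7, with a median of 680.7. H exceeded the mean of the other 11 lines by 3.57 (log2, SE 0.16, limma adjusted p = 6.97e-17), in a comparison that called 32.2% of all probe sets. H exceeded L by 4.03 (adjusted p = 4.65e-15), while pairs A to D (-0.31 to 0.27) and the CA pair (-0.04, adjusted p = 0.939) did not pass. Thus H and both CA lines were high and all other lines low for Zip102B, while for Rnf11 CA low was between the groups and B1 and D1 differed from B2 and D2.

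**Figure D3:**
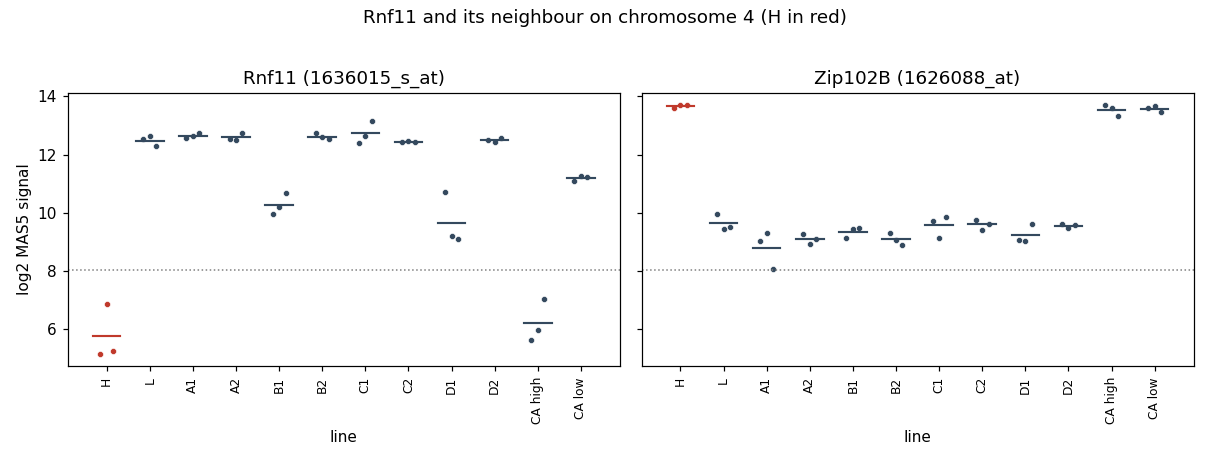
Log2 signal (vertical axis) of Rnf11 and of its neighbour Zip102B in the 12 lines (horizontal axis), with a point per array, a bar at the mean of 3 arrays and H in red. H is lowest of the line means for Rnf11 and among the 3 high lines for Zip102B.

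For each member the 3 nearest measured genes on either side, taken from the gene order of the assembly Release 6 plus ISO1 MT, were compared between the member's low line and the other 11 lines. On 1 side of RhoGDI these were 10, 17 and 18 genes away, and CG1674 was 8 genes from Rnf11. The others were at most 6 genes away. Of the 42 neighbours, 4 were called lower and 5 higher by limma. Either direction held for 23.7% of all probe sets in CA low, 24.3% in CA high and 32.2% in H. The 8 reselected lines among the other 11 belong to another run of title numbers than the low lines, and its part was not tested. Without those of Rnf11, the differences ran from -0.43 (Irk1, a potassium channel gene near unk) to 0.81 (CG13829, also near unk, adjusted p = 0.0909). The segment polarity ligand gene hh, next to unk, had mean signals of 8531 in CA low and 7503 in the other lines, a rise of 0.19 (limma adjusted p = 0.00299) that did not pass with centred arrays (adjusted p = 0.48). None of the 6 neighbours of TfIIA-L or of Adk3 passed. Scaling moved the split. With arrays centred on their medians, 0 of the 36 neighbours of the other 6 members were called higher and 5 lower. With quantile normalization 3 were higher and 4 lower. Of all tested probe sets, centring called 404 higher and 1281 lower in CA low, and 562 higher and 905 lower in CA high. Quantile normalization called 1156 higher and 1169 lower in CA low, and 1120 higher and 1190 lower in CA high.

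Of the 6 neighbours of Rnf11, Zip102B and CG1674 were called higher in H against the other 11 lines. CG1674 gave 1033.0, 1212.9 and 1292.1 in H, 122.6, 329.0 and 429.2 in CA high, and 100.6, 262.8 and 341.2 in CA low. On the 27 arrays of L and the reselected lines it gave 407.4 to 1151.5, with a median of 795.6, which overlapped H, and 5 of the 6 CA arrays were below all 27. The difference between H and the other 11 lines was 0.91 (SE 0.28, limma adjusted p = 0.0136), H minus L was 0.59 and did not pass (adjusted p = 0.296), and with centred arrays the first was 0.50 and did not pass either (adjusted p = 0.126). Of 42 other genes of chromosome 4 that were tested, 14 were higher and 3 lower in H (background 16.7% higher and 15.6% lower), and values ran from -1.07 (PlexB) to 3.57 (Zip102B). The counts moved with scaling, as did those of all tested probe sets. With arrays centred on their medians 4 were higher and 26 lower, where all 9385 gave 148 higher and 5859 lower. With quantile normalization 16 were higher and 4 lower, where all 9385 gave 1176 higher and 1552 lower. The median of the 42 was above that of all tested probe sets in each scaling. It was 0.13 against 0.04 as deposited, -0.28 against -0.365 when centred, and 0.14 against -0.0018 with quantile normalization. With arrays centred on their medians, 1 neighbour of Rnf11 was called higher and 2 lower. The background for these is the same 148 higher and 5859 lower of all tested probe sets.

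**Figure D4:**
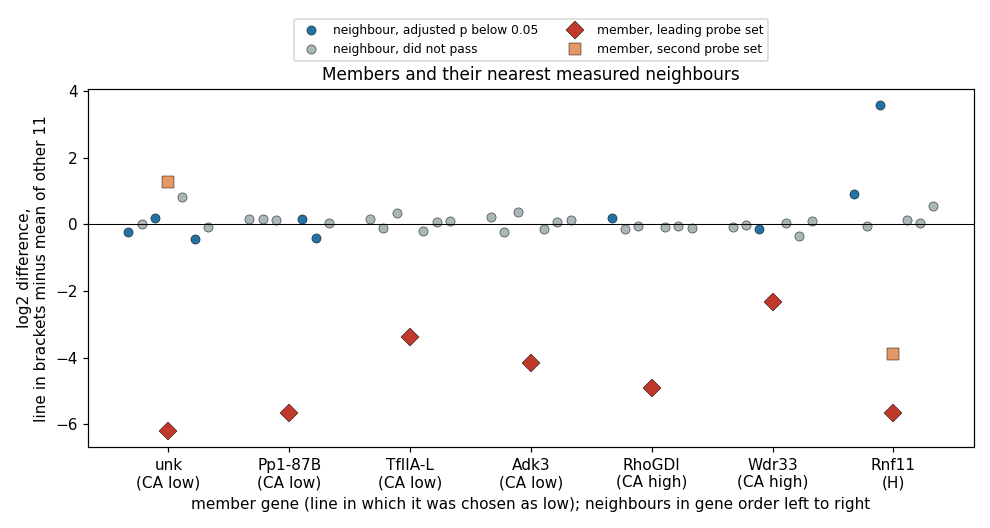
Log2 difference between the low line in brackets and the mean of the other 11 lines (vertical axis) for each member and its 6 nearest measured neighbours in gene order (horizontal axis). The neighbours lie between -0.43 and 0.91 except Zip102B at 3.57. The leading probe sets of the members lie between -6.20 and -2.32, but the members were picked for this difference, so nothing is read from their distance to the neighbours.

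The partner genes of each member other than RhoGDI were counted in the same comparison, low line against the other 11. Here too the 8 reselected lines belong to another run of title numbers, and its part was not tested. The PP1 list of 17 symbols held 12 tested genes, catalytic, targeting and inhibitor subunits beside wdb, a subunit of another phosphatase, and 1 rose, 4 fell and 7 did not pass in CA low, with a median of -0.06 against 0.03 for all tested probe sets. Of all tested probe sets, 12.1% were called higher and 11.6% lower in CA low. Of the other catalytic genes, flw, the beta-type subunit, fell to 9642 ± 430 in CA low, against 12947.5 ± 1436 in the other lines (SD over 3 arrays and over 11 lines), a difference of -0.42 (SE 0.04, limma adjusted p = 1.69e-09). Pp1alpha-96A had 3392 ± 196 in CA low and 4088 ± 591 in the other lines (-0.25, limma adjusted p = 0.0166), and Pp1-13C was below the filter, at 142.8 in CA low and 105.8 elsewhere. The glycogen-targeting gene Gbs-70E fell by 0.45 in log2 signal and the myosin phosphatase-type gene MYPT-75D rose by 0.34 (limma adjusted p = 0.0045 and 0.00145). With centred arrays none of the list was called higher, while of all tested probe sets 404 were called higher and 1281 lower in CA low.

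Among 21 tested genes of basal transcription, 0 rose and 6 fell in CA low, with a median of -0.05 (0.03 for all tested probe sets). The background in CA low was 12.1% higher and 11.6% lower. Trf2, which replaces TBP at a set of promoters, had 1229 ± 68.2 in CA low and 2242 ± 222 in the other lines, a difference of -0.86 (SE 0.11, limma adjusted p = 1.94e-07). The TBP relative Trf fell by 0.39, TfIIB by 0.32 and Taf6 by 0.20 (limma adjusted p = 0.0048, 5.03e-07 and 0.0453). TfIIA-S, which encodes the small TFIIA subunit, did not pass, with 14258 in CA low and 15868 in the other lines (-0.15, limma adjusted p = 0.179). TfIIA-S-2 was below the filter, at 30.9 in CA low and 40.0 in the other lines.

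Of 11 tested TOR pathway genes, 1 rose and 1 fell in CA low, with a median of 0.05: the kinase gene S6k by 0.25 (limma adjusted p = 0.0424) and REPTOR-BP, a partner of a transcription factor repressed by TOR, which fell by 0.35 (adjusted p = 0.0114). As above, the background in CA low was 12.1% higher and 11.6% lower, for this list and the next. The genes hdc and Tor were not analysed here. Of 5 tested nucleotide kinase and AMPK genes, the adenylate kinase gene Ak6 rose by 0.19 (limma adjusted p = 0.0078) and 4 did not pass, with a median of -0.01. Adk1, another adenosine kinase gene, was below the filter with 38.3 in CA low and 74.1 in the other lines, and Adk2 was not analysed here. With centred arrays both lists had 0 genes called higher, while of all tested probe sets 404 were called higher and 1281 lower.

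Among 17 tested genes of cleavage and polyadenylation, the machinery of Wdr33, 2 rose, 3 fell and 12 did not pass in CA high, with a median of -0.04 against -0.00437 for all tested probe sets (background 11.2% higher and 13.1% lower). The cleavage stimulation gene su(f) fell by 0.22 and hrg, the poly(A) polymerase gene, by 0.16, whereas the endonuclease gene Cpsf73 rose by 0.19 and Cpsf5 by 0.16 (limma adjusted p = 0.0249, 0.0241, 0.00701 and 0.0375). None of these 17 was called with centred arrays, while of all tested probe sets 562 were called higher and 905 lower in CA high.

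In H, 5 of 14 tested genes of ubiquitin ligases and BMP signalling rose, 2 fell and 7 did not pass, with a median of 0.13 against 0.04 for all tested probe sets (background 16.7% higher and 15.6% lower). The ubiquitin-conjugating enzyme gene ben had 38837 ± 851 in H and 28239 ± 2953 in the other lines (0.47, SE 0.10, limma adjusted p = 0.000664). Nedd4, a ubiquitin ligase, rose by 0.43, Cbl by 0.36 and Mad, the transducer of BMP signals, by 0.35 (limma adjusted p = 0.00177, 0.0074 and 0.000466). The other rise was that of tkv, by 0.15 (adjusted p = 0.00853). The 2 that fell were Smurf, by 0.15, and sax, by 0.14 (adjusted p = 0.0331 and 0.0283). The count depended on scaling. Centring arrays on their medians shifts the median of all probe sets in H to -0.365 in log2. With it 0 of the 14 were called higher and 7 lower, and ben, Nedd4, Cbl and Mad did not pass, at -0.06 to 0.07. With quantile normalization 5 were higher and 0 lower, and these 4 were among the 5. That scaling called 1176 higher and 1552 lower of all tested probe sets in H. Of all 9385 tested probe sets, centring called 148 higher and 5859 lower in H, so nothing is read from the 7.

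**Figure D5:**
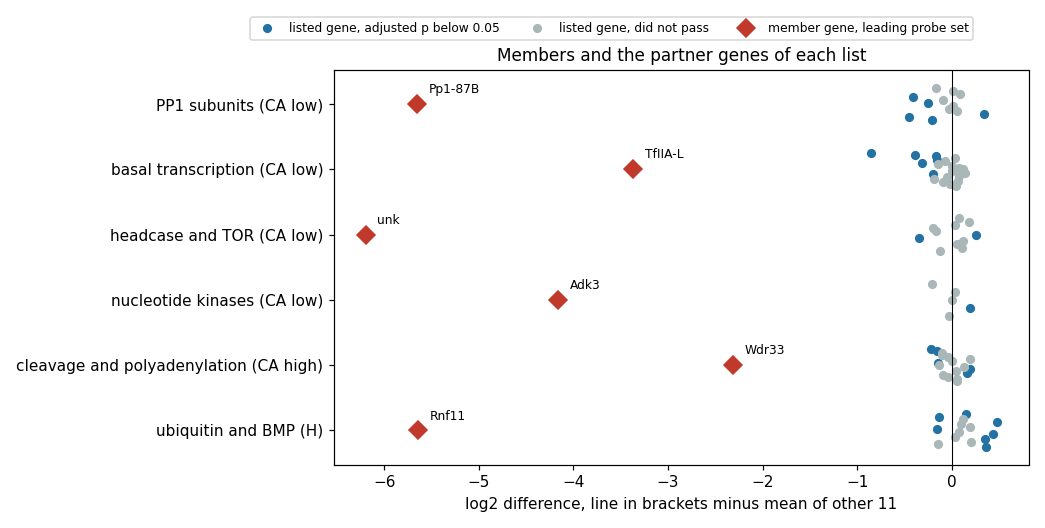
Log2 difference between the line in brackets and the mean of the other 11 lines (horizontal axis) for the tested genes of 6 partner lists (vertical axis) and for the member of each list. All tested partners lie between -0.86 and 0.47. The members lie between -6.20 and -2.32, but they were picked for this difference, so nothing is read from their distance to the partners.

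The genes whose 12 line means were most like a member's were named by Pearson r, as descriptions over points that share the same arrays and, in most cases, rest on the low line. TfIIA-L and Pp1-87B had an r of 0.999 with each other and of 0.988 with unk, and CG7650, with 108.4 in CA low and 861.2 in the other lines, followed at 0.983 to 0.987. Adk3 was most like CG17672 (r = 0.962), CanA-14F (0.946) and CG15628 (0.943), of which the last had 79.9 in CA low and 4243 in the other lines. RhoGDI was most like Act87E (0.978), CG7173 (0.975) and CG5886 (0.969). Wdr33 was most like Ykt6 (0.984), CG33506 (0.965) and RhoGDI (0.963). Rnf11 had lower values, with Ipk2 (0.908), Polr1E (0.902) and slgA (0.896).

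Members were not alone in standing far below all lines. A line mean at least 4-fold below every other line mean was found for 25 of 9385 probe sets (0.266%). A line mean at least 4-fold above every other was found for 5 (0.0533%). The filter on mean signal keeps a probe set dim in 1 line more readily than a probe set bright in only 1 line. These counts are therefore not compared with each other. The 25 included 6 of the member probe sets, from a gap of 5.94 (unk) to 2.14 (Wdr33), and not Rnf11, with a gap of 0.47. Nothing is read from the presence of these 6, since the members were picked for a low line of this kind. There were 14 in CA low, 6 in CA high, 3 in B1, and 1 each in C1 and H, so 20 were in a CA line. For 14 of the 25 the low line's mean was under the filter level of 259.72. Another probe set of the same gene was tested for 6 of them, and none of these other probe sets was also 4-fold below every line. For CG7650 the nearest was 1.61 below every other line (log2), and for spas, the gene of the microtubule-severing enzyme spastin, the other probe set in C1 was above the lowest of the other lines, a gap of -2.33 (log2), as the second probe set of unk was in CA low with a gap of -1.82.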

How the data were processed

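Total RNA from wing discs of 12 lines (3 arrays each) was labelled and hybridised to Affymetrix arrays. The authors deposited linear intensity values, made with MAS5 according to the submitters' processing notes, and its version is not given in the sources used here. The trimmed mean of each array was 2496.8 to 2498.6, so the arrays had been scaled to a common level. Of 18952 probe sets 183 controls were left out. Signals were taken to log2 with no pseudocount, and probe sets with a mean at or above that of the median probe set (signal 259.72) were tested, 9385 in all. The number of arrays limits the precision.

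Symbols came from a table of the platform's annotation, with a single symbol for 13647 probe sets, more than 1 for 402 and no symbol for 4720, and only the first kind was used for names. It was matched by gene identifier to a gene table of the assembly Release 6 plus ISO1 MT, used for symbols and gene order only.

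Arrays were grouped by line from their titles. Tests used limma 3.58.1 in R 4.3.3 with 1 mean per line over all 36 arrays, an intensity trend, 24 residual degrees of freedom (prior 6.34), and Benjamini-Hochberg adjustment at 0.05. They are two-sided, and the steps were tested on simulated data. The 5 MA pairs, the CA pair, each low line against the mean of the other 11, and each CA line against the mean of the 10 MA lines were compared. The comparisons of low lines share arrays with each other. Title numbers fall in 2 runs, 1 of the 24 reselected arrays and 1 of the 12 arrays of H, L and both CA lines. Each pair lies within a run. The low-line and CA comparisons of the members, and the counts of probe sets called in them, were repeated with lines of the same run. Those of the neighbours, the chromosome 4 genes and the partner lists were not, and there the 8 reselected lines belong to the other run.

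The members, lists and comparisons were chosen with earlier results of these data known. Named were all members, of each list the 4 largest called differences and the paralogs, the 3 measured neighbours on either side, and the 3 genes with the highest r. The other called genes of the ubiquitin and BMP list were named as well. A gene with several tested probe sets was read in a list by the brightest. The genes spas and CG7650 of the last paragraph, PlexB, and the count of lone low probe sets were chosen after their values were seen. Alternatives were no filter, a stricter filter, centring, quantile normalization, a pseudocount of 29.4, no trend, a replicate block, only the 6 arrays of a pair, and leaving out each array. The partner genes of RhoGDI are not reported here.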

Additional observations from a re-analysis of the deposited data

Results flagged for a closer look

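The difference between the high and the low line in the leading probe set of Rnf11 was not the same in the 4 reselected pairs, by contrasts of the pairs in the limma model of 36 arrays with Benjamini-Hochberg adjustment over 9385 probe sets. The contrasts were added after the data had been seen and reuse the same 4 pair differences, so they are not separate results. Pair A exceeded pair B by 2.39 (log2, SE 0.49, adjusted p = 0.00227) and pair D by 2.88 (adjusted p = 0.000276). Pair B minus pair C was -2.63 (adjusted p = 0.000621), and pair C exceeded pair D by 3.12 (adjusted p = 9.19e-05). In the second probe set of Rnf11 the same contrasts did not pass, with differences of 1.11 for A minus D (adjusted p = 0.244) and 1.52 for C minus D (adjusted p = 0.0762).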

How the results depend on the processing

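Of the 52 member differences tested, 13 passed as reported, 11 with no filter, 11 with each array centred on its median (3 lost, and TfIIA-L between H and L gained), 10 with quantile normalization, 13 with the pseudocount, 12 with no trend, and 12 to 13 when each array in turn was left out. No called member difference changed sign. The difference of the leading Rnf11 probe set between A1 and A2, 0.05 as reported and not called, ran from -0.00549 to 0.12 when an array was left out, and was below 0 without A2 replicate 2. In the second Rnf11 probe set, the B1 minus B2 difference passed when only the 6 arrays of the pair were used (adjusted p = 0.0152) and without H replicate 2 (0.0424). The low-line differences kept their direction under all alternatives run. They moved by more than the spread between arrays for TfIIA-L with centred arrays (-3.46), and for Pp1-87B (-5.52) and the leading Rnf11 probe set (-4.22) against the other 3 lines of the same run. With the pseudocount, unk gave -5.26, Adk3 -3.52 and Rnf11 -5.03.

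The counts of probe sets called fell with centred arrays to 729 in A1 minus A2, 713 in B1 minus B2, 745 in C1 minus C2, 529 in D1 minus D2, 969 in the CA pair and 1467 in CA high minus the other 11 lines, and rose to 6007 in H minus the other 11 lines, where 3024 were called as deposited. Centring moved the share of higher calls from 51.7% to 2.46% in that comparison, from 48.4% to 11.2% in H minus L, from 50.9% to 24% in CA low minus the other 11 lines and to 24.7% in CA low minus the MA mean, and from 46.8% to 62.7% in the CA pair. With only the 6 arrays of the pair, 711 were called in B1 minus B2 and 671 in C1 minus C2. When each array was left out in turn, the counts ran from 1547 to 1945 in H minus L, 1013 to 1360 in A1 minus A2, 859 to 1400 in B1 minus B2, 837 (without C2 replicate 3) to 1393 in C1 minus C2, 708 to 843 in D1 minus D2 and 1241 to 1316 in the CA pair. Against the other 11 lines they ran from 1529 to 2321 in CA low, 1627 to 2425 in CA high and 1949 (without H replicate 3) to 3120 in H, and against the MA mean from 1601 to 2423 in CA low and 1734 to 2540 in CA high. The causes were not tested.

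The replicate numbers in the titles gave no pairing: of 18 same-number correlations of deviations from the line means, 3 were over 0.1 and the range was -0.064 to 0.188. With the replicate number as a block, 13 of the 52 member differences passed, and the counts of probe sets called moved by less than 1.5 times (2182 in H minus L, for example).

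The precision is limited by 3 arrays per line. Low signals of unk, Adk3 and Rnf11 lie near the dim end of the arrays, where no detection call shows whether they are above background.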
